A study of Arabidopsis thaliana with 16 samples.

Results

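The step from low to high light in wild type Arabidopsis thaliana rosettes is described from 5 of the 16 arrays of the series. These are the wild type (WT) high light replicates 1 and 3 and the WT low light replicates 1, 2 and 3. WT high light replicate 2 was left out by rule, because its log2 signal for the heat-inducible chaperone gene HSP90.1 lay at the low light level, below the threshold of 6. Its value was 3.62, against 9.80 and 9.77 in the kept high light arrays and at most 3.55 in low light. Since the choice used this readout, the contrast between these 5 arrays is given as a description with no test, and replicate 2 is printed beside it.

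All groups used here are Arabidopsis plants whose whole rosettes were profiled on Affymetrix gene arrays, with 15 plants in a single replicate. The wild type is the accession Col-0. Plants of 3 weeks, raised in normal growth light, spent 10 days at 8 µmol photons per square metre and second, so the controls also went through this dimming. They were harvested in the light period either still at 8 µmol (low light, LL) or after a shift to 800 µmol (high light, HL). The titles give 60 min for this shift and the treatment protocol gives 10 min, and the labels do not settle which holds. The main test rests on arrays the rule did not use, 4 pools of 45 plants, which combine 3 replicates each, for WT and for a knockout of the calmodulin-like gene CML49 in LL and HL. A further fit takes all 12 single arrays as labelled, which include the 5 arrays and replicate 2 and add a knockout of the stress-associated protein gene SAP3. Other genotypes enter only those fits.

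Leaves kept in dim light burn stored carbon and protein, and a sudden rise in light drives photosynthesis beyond what they can use. The excess energy yields reactive oxygen, and chloroplasts signal to the nucleus through redox state, metabolites and sugars. Heat shock factors, light receptors and sugar-sensing kinases are known to reset transcription within such a shift, which raises chaperones and antioxidants and lowers programmes for carbon shortage.

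Values are log2 signals. Array medians lay between 4.37 and 4.41 and single values between 0.55 and 14.11. Precision is limited by how many arrays there are. The markers bore out the labelled tissue: 21 of 23 leaf mesophyll markers had a mean at or above the median of all probe sets, against 3 of 22 root markers and 1 of 24 flower and pollen markers. The list medians in the 6 WT arrays were 10.42 to 11.18 for mesophyll, 2.66 to 2.95 for root and 2.04 to 2.5 for flower. In whole rosettes, fewer cells of a type and less RNA per cell cannot be told apart. Printed adjusted p-values come from the pools unless another fit is named. They weigh the light difference against the disagreement between the WT and cml49 pool pairs, with 1 residual degree of freedom and a spread estimate shared across probe sets, and not against the spread between replicates of 15 plants.

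A size call was made where HL and LL differed by at least 1 on the log2 scale and the ranges of the 2 kept HL and 3 LL arrays did not overlap. Of 28403 probe sets, 770 were called higher in HL (2.71%) and 513 lower (1.81%). Without the size limit, ranges did not overlap for 38.6% of probe sets, 18.4% higher and 20.2% lower. The choice of arrays used this contrast, so nothing is read from these shares. Among the size calls, 179 probe sets were higher by at least 2, against 75 lower, and 22 were higher by at least 4, against 1 lower. Over all 28403 probe sets, the pool pair labelled WT, which the rule did not use, had 270 higher by at least 2 and 168 lower. That count sets 1 array against 1 array with no condition on ranges, so it is not of the same kind as the size calls. Some called probe sets carry the same values on all 6 WT arrays, up to 13 of them at once, so the 1283 calls hold 1264 distinct patterns.

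Pools gave the test. In a limma fit of light over the WT and cml49 pool pairs, 684 probe sets rose (2.41%) and 523 fell (1.84%) at a Benjamini-Hochberg adjusted p under 0.05. Of the 770 size calls higher in HL, 527 also rose in the pools, which is 68.4% of the size calls and 77.0% of the pool increases. Of the 513 lower, 335 also fell, which is 65.3% of the size calls and 64.0% of the pool decreases. No size call passed the pools test in the opposite direction. In the WT pool pair alone 612 of the 770 were higher by at least 1 and 412 of the 513 lower by at least 1, and in the cml49 pair 595 and 353. Over all probe sets the pair labelled WT gave 4.39% higher and 3.35% lower by at least 1. The labels do not say whether the WT pools hold RNA of the single replicates. CML49 itself had signals of 2.77 and 3.3 in the LL and HL pools labelled WT and 3.97 and 4.23 in those labelled cml49, the reverse of what the labels say, and exchanging those 2 labels leaves the light difference of this fit as it is. Values given for one pool pair follow the labels and would trade places if the labels are exchanged.

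**Figure D1:**
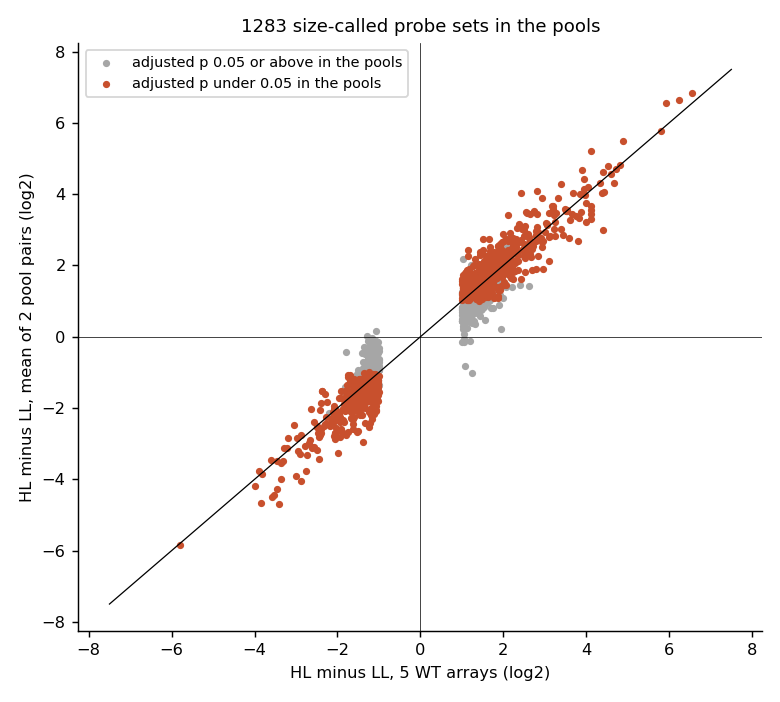
Difference between HL and LL (log2) of the 1283 size-called probe sets in the 5 WT arrays (x axis) and as the mean of the 2 pool pairs (y axis). Red points passed the limma test in the pools (adjusted p under 0.05), grey points did not, and the diagonal marks equal differences. No red point lies on the side opposite to its difference in the 5 arrays.

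HL replicate 2 sat with the low light arrays across the called genes, not at HSP90.1 alone. Its position was scaled so that 0 is the LL mean and 1 the mean of the kept HL arrays. The median position was 0.03 over the 770 higher calls (quartiles -0.09 and 0.17) and 0.00 over the 513 lower calls (quartiles -0.11 and 0.12; median -0.003). With all 6 WT arrays as labelled, 174 probe sets were size-called higher and 57 lower. The limma fit over all 12 arrays as labelled called 0 probe sets (0%) for light in WT. Before adjustment 1751 had p under 0.05, and the lowest adjusted p was 0.713. The sap3 arrays share the spread estimate of this fit. Their HSP90.1 signals were 3.86, 11.09 and 3.19 in LL (replicates 1 to 3). In HL they were 10.21, 10.07 and 3.17, so sap3 LL replicate 2 and HL replicate 3 also lay on the side opposite to their labels. In the authors' deposited table the wild type means for HSP90.1 were 3.2 for control and 8.27 for stress, with a log ratio of 5.08 and a p of 0.0174. Those means in the authors' deposited table fit the 3 WT arrays as labelled, replicate 2 included, plus the pool labelled cml49, to within 0.0045 in LL and 0.0047 in HL over all main probe sets.

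**Figure D2:**
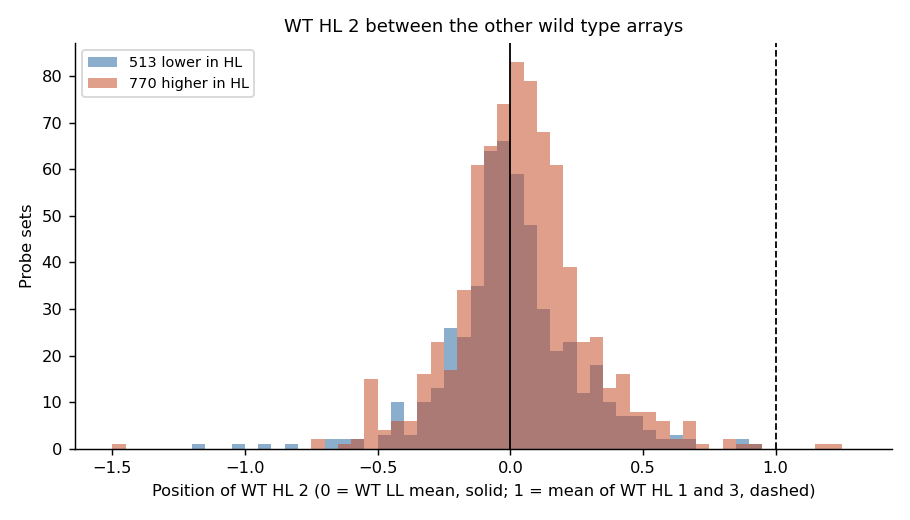
Position of WT HL replicate 2 for the size-called probe sets (x axis, 0 at the LL mean and 1 at the mean of HL replicates 1 and 3) against the number of probe sets (y axis), for the 770 higher (red) and 513 lower (blue). Both distributions centre near 0, with medians of 0.03 and -0.003.

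Heat shock genes led the increases. The largest differences each way were ranked among size calls that also passed the pools test in the same direction. Passing that test is therefore no further support for the ranked genes. HSP90.1 (AT5G52640, chromosome 5, 21352399 to 21355361 in the authors' annotation, which names no build), a cytosolic chaperone, had signals of 2.8, 3.38 and 3.55 in LL and 9.80 and 9.77 in HL. HSP17.8 (AT1G07400), a small heat shock protein, had 2.57, 2.22 and 3.09 in LL, 8.59 and 9.15 in HL and 2.57 in replicate 2. HSP70-4 (AT3G12580), a cytosolic HSP70, had 5.90, 6.67 and 6.11 in LL, 12.12 and 12.18 in HL and 7.96 in replicate 2. The differences were 6.54, 6.24 and 5.92, or 93.2-fold, 75.8-fold and 60.7-fold. For HSP90.1 the separation follows from the rule that chose the arrays. In the pools they rose by 6.83 ± 0.16, 6.64 ± 0.16 and 6.56 ± 0.19 (SE), with adjusted p of 0.0035, 0.0035 and 0.0048. ROF2 (AT5G48570), a peptidyl-prolyl isomerase of the FKBP family, had 4.76, 4.33 and 4.39 in LL, 10.33 and 10.28 in HL and 4.45 in replicate 2. HSFA2 (AT2G26150), a heat stress transcription factor, had 1.92, 2.05 and 1.87 in LL, 6.85 and 6.83 in HL and 2.17 in replicate 2. Both rose in the pools, by 5.76 ± 0.23 and 5.49 ± 0.17 (adjusted p = 0.0057 and 0.0048). For HSP70-4, replicate 2 lay above every LL array, 0.29 of the way to the kept HL arrays.

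The other genes among the 8 largest increases serve sugar transport, translation and gene control. AT5G12110 (chromosome 5, 3914468 to 3915968), which encodes an elongation factor 1-beta subunit of cytosolic translation, had 4.12, 4.63 and 4.45 in LL, 9.19 and 9.22 in HL and 4.97 in replicate 2. GPT2 (AT1G61800, chromosome 1, 22824440 to 22826774), a plastid glucose 6-phosphate translocator known to respond to sugar and light, had 2.88, 2.82 and 3.16 in LL, 7.57 and 7.79 in HL and 4.51 in replicate 2. ASG4 (AT1G01520, chromosome 1, 190596 to 192139), an MYB-like factor, had 2.05, 1.73 and 1.57 in LL, 6.45 in both kept HL arrays and 2.39 in replicate 2. These differed by 4.80, 4.73 and 4.67 in the 5 arrays and rose in the pools by 4.82 ± 0.28, 4.70 ± 0.18 and 4.32 ± 0.17 (adjusted p of 0.0057 to 0.0064). The kept HL arrays differed from each other by at most 0.22 in these 3 genes, and replicate 2 lay above the LL range in each.

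The next 12 increases lay between 4.05 and 4.6. Their adjusted p in the pools were 0.0057 to 0.0146, under the threshold as the ranking required. They included the disaggregase HSP101 (4.6), the cis-prenyltransferase cPT4 (4.53), the B-box factor BBX31 (4.44), the clock component PRR9 (4.40), the granule-bound starch synthase GBSS1 (4.32) and the plastid sigma factor SIG5 (4.12). PRR9 was the one whose pools increase was furthest below the 5-array value, at 3.00 ± 0.17. The same 12 held genes of no assigned function, AT2G15020 (4.38) and AT4G34550 (4.05). For SIG5 the array values were 5.31, 5.65 and 5.25 in LL and 9.51 and 9.53 in HL, with 5.76 in replicate 2.

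BT2 led the decreases. BT2 (AT3G48360, chromosome 3, 17908192 to 17910525), a BTB and TAZ domain scaffold protein, had 9.63, 10.08 and 9.52 in LL, 4.08 and 3.83 in HL and 10.00 in replicate 2. KMD1 (AT1G80440), an F-box protein that targets cytokinin response regulators, had 7.92, 8.33 and 7.85 in LL, 3.84 and 4.25 in HL and 7.98 in replicate 2. They were lower by 55.3-fold and 15.9-fold (log2 differences of -5.79 and -3.99). In the pools BT2 fell by 5.84 ± 0.30 and KMD1 fell by 4.19 ± 0.21 (adjusted p = 0.0059 and 0.0057). AT3G15630, of unknown function, had 6.98, 6.98 and 7.08 in LL, 2.83 and 3.42 in HL and 6.56 in replicate 2. AT3G15450, annotated as aluminium-induced with YGL and LRDR motifs, had 8.90, 9.0 and 8.67 in LL, 5.01 and 5.02 in HL and 8.68 in replicate 2. BBX14 (AT1G68520), a B-box zinc finger factor, had 8.39, 8.47 and 8.32 in LL, 4.50 and 4.64 in HL and 8.42 in replicate 2. That the kept HL and LL arrays stand clear of each other in these genes follows from the size call. Replicate 2, which had no part in the call, lay within the LL range for BT2, KMD1, AT3G15450 and BBX14 and below it for AT3G15630.

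The last of the 8 were AT3G62550, AT2G20670 and AT5G22920. AT3G62550, annotated as a drought-responsive protein with an ATP-binding motif, had 9.36, 9.53 and 9.32 in LL, 5.98 and 5.64 in HL and 9.51 in replicate 2. AT2G20670 had 7.92, 8.77 and 7.78 in LL, 4.57 and 4.6 in HL and 8.04 in replicate 2. AT5G22920, a RING and CHY zinc finger protein, had 7.58, 7.67 and 7.53 in LL, 4.1 and 4.00 in HL and 7.16 in replicate 2. Their adjusted p in the pools were 0.0057, 0.0057 and 0.0208, under the threshold as the ranking required. Of these 8, AT5G22920 differed most between the pool pairs, with -5.48 in the pair labelled WT and -3.42 in the pair labelled cml49. Among the 12 decreases that followed, from -3.46 to -2.96, were the dormancy-associated genes AT1G56220 and DYL1, the trehalose phosphate synthase genes TPS8 and TPS11, and the F-box gene KMD3 (AT2G44130). The adjusted p of these 12 in the pools were 0.0057 to 0.0384, again under the threshold by the way they were ranked.

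**Figure D3:**
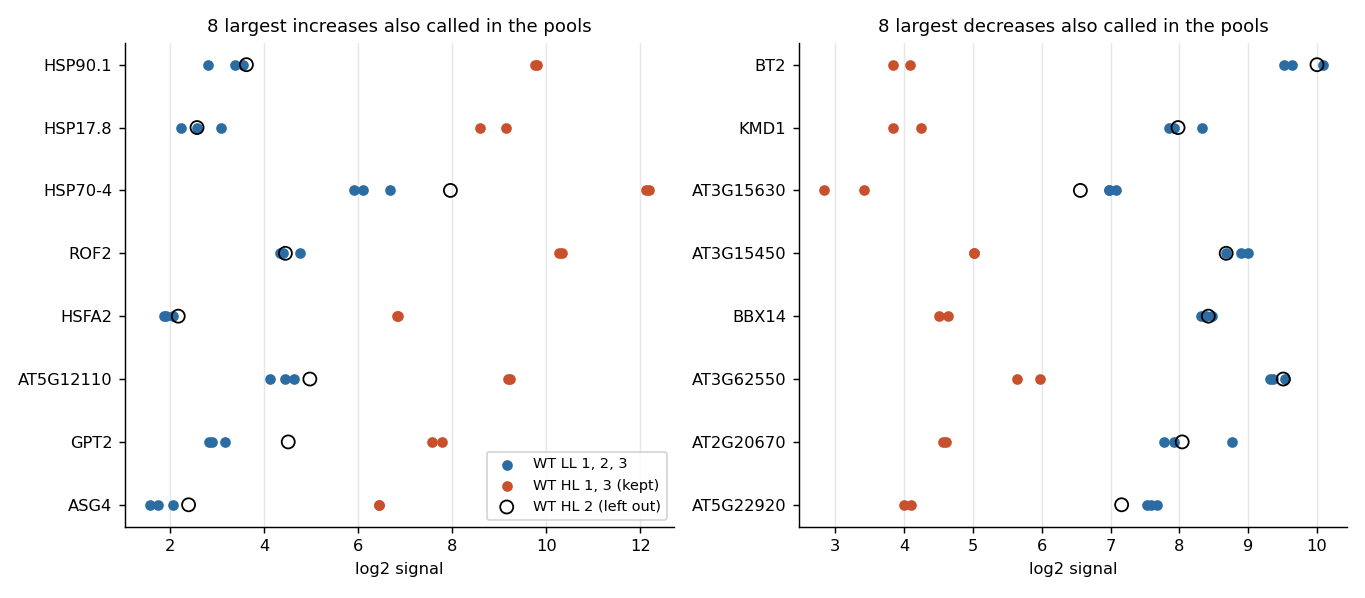
Log2 signal (x axis) of the 8 largest increases (left) and 8 largest decreases (right) that also passed the pools test, in the WT LL arrays (blue), WT HL replicates 1 and 3 (red) and WT HL replicate 2 (open circle). The red points stand apart from the blue in every row, as the size call requires. The open circle lies with or near the blue, farthest from it for HSP70-4 and GPT2.

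Protein folding genes changed in the cytosol, the organelles and the secretory pathway. Of 52 cytosolic and nuclear chaperone and heat shock factor genes, 29 were size-called higher and 0 lower, and 28 rose in the pools. Over all probe sets 2.71% were size-called higher and 1.81% lower, and 2.41% rose in the pools. HSP90.1 is among the 29, and its size call follows from the rule that chose the arrays. The list median was 1.27, against -0.02 over all probe sets. Besides the leading genes it held the co-chaperone FES1A (3.2), the co-activator MBF1C (3.18) and HOP3 (3.06), which links HSP70 to HSP90. FES1A had 3.51, 3.51 and 3.53 in LL, 6.80 and 6.63 in HL and 3.51 in replicate 2. HSP90.2 and HSP90.3 were higher by 2.74 and 2.56, but their sequences are near copies of each other and the signals may not be separate. Of 21 chaperones of plastids and mitochondria, 11 were higher, 0 lower and 11 rose in the pools, among them HSP23.5 (3.54), MTHSC70-2 (2.18), HSP23.6 (1.98) and CLPB4 (1.90). The median of that list was 1.15.

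Endoplasmic reticulum genes moved less. Of 26, 8 were size-called higher and 5 rose in the pools, with a list median of 0.36. The nucleotide-sugar transporter UTR3, the lectin chaperone CNX1 and the HSP70 BIP2 differed by 2.25, 1.71 and 1.67 and rose in the pools by 2.77 ± 0.22, 2.14 ± 0.25 and 1.68 ± 0.17 (adjusted p = 0.0106, 0.0234 and 0.0171). BIP1 had 4.84, 5.08 and 4.63 in LL and 6.73 and 6.98 in HL, a difference of 2.00, and 2.5 ± 0.51 in the pools (adjusted p = 0.0793). BIP1 and BIP2 are close paralogues, and their probes may share transcripts. Of 35 proteasome subunits and 29 ribosome biogenesis genes, 0 were size-called or passed the pools test, with medians of 0.04 and 0.20. Over all probe sets 2.71% were size-called higher and 1.81% lower, so 0 in lists of this size is near that share. Among 33 translation factors and regulators, S6K1 (1.7) and S6K2 (0.92), kinases of the ribosomal protein S6, rose in the pools. Their pool increases were 1.44 and 1.82, with adjusted p under the threshold in both, and S6K2 did not reach the size of a call in the 5 arrays.

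Genes for life on stored carbon and protein were lower. Of 32 genes for branched-chain amino acid breakdown and energy starvation, 15 were size-called lower, 1 (BT1) higher, and 10 fell in the pools, with a list median of -0.83. Over all probe sets 1.81% were size-called lower and 2.71% higher, and 1.84% fell in the pools. After BT2, KMD1 and KMD3 came AKINBETA1, the beta subunit of the energy kinase SnRK1, with 8.56, 8.98 and 8.60 in LL, 6.18 and 6.02 in HL and 8.51 in replicate 2. It was lower by 6.12-fold and fell by 3.13 ± 0.32 in the pools (adjusted p = 0.0176). DIN10, a dark-inducible raffinose synthase-like gene, and DIN6, an asparagine synthetase, differed by -2.00 and -1.23 and fell in the pools. Other genes of the SnRK1 network went the same way: bZIP63 differed by -1.93, the gamma-type subunit KING1 by -1.80, bZIP9 by -1.34 and bZIP1 by -1.07, and each fell in the pools. Of 30 genes in that list, 6 were size-called lower and 2 higher, and the higher bZIP11 (1.61) also rose in the pools. The catalytic subunits KIN10 and KIN11 had differences of -0.18 and -0.25, below the size of a call.

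Of 25 autophagy genes, 2 were size-called lower and 0 higher, beside 1.81% and 2.71% over all probe sets. The list median was -0.38. ATG8E, a ubiquitin-like protein that coats the autophagosome, had 4.95, 5.30 and 5.17 in LL, 3.07 and 3.09 in HL and 5.11 in replicate 2. It fell by 2.7 ± 0.25 in the pools (adjusted p = 0.0144). ATG8F differed by -1.02 in the 5 arrays and by -1.22 ± 0.22 in the pools (adjusted p = 0.0572).

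Trehalose 6-phosphate genes differed in both directions. Trehalose 6-phosphate signals sucrose supply, and the class II synthase-like proteins TPS5 to TPS11 are thought to be regulatory. TPS8, TPS11, TPS10 and TPS9 differed by -3.46, -3.00, -2.49 and -2.07. TPS8 had 8.05, 8.26 and 7.83 in LL, 4.56 and 4.62 in HL and 7.91 in replicate 2. TPS9 had 6.11, 6.28 and 5.94 in LL, 3.95 and 4.13 in HL and 6.79 in replicate 2, which lay above the LL range. All 4 fell in the pools (adjusted p of 0.0057 to 0.0097). In contrast the phosphatase genes TPPG and TPPJ differed by 1.90 and 1.84 and rose in the pools (adjusted p = 0.0196 and 0.0093), while TPPH fell there. TPS1, the catalytically active synthase, differed by 0.50, and TPS5 by 0.61, both below the size of a call.

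Starch and sugar transport genes were mixed. Of 38 starch genes, 5 were size-called higher and 0 lower, and 4 rose in the pools. Over all probe sets 2.71% were size-called higher and 1.81% lower, and 2.41% rose in the pools. GBSS1, which makes amylose, had 5.61, 5.4 and 5.23 in LL, 9.71 and 9.76 in HL and 5.4 in replicate 2, and rose in the pools by 4.30 ± 0.20 (adjusted p = 0.0057). The amylases AMY2 (1.71), BAM1 (1.17) and BAM6 (1.03) also rose there. Of 42 transporters, 5 were higher and 4 lower. The sucrose exporter SWEET13 had 3.78, 4.18 and 4.12 in LL and 7.18 and 7.36 in HL, whereas its relative SWEET12 had 6.88, 7.02 and 6.72 in LL and 4.99 and 5.11 in HL. SWEET13 rose by 2.82 ± 0.18 in the pools and SWEET12 fell by 1.52 ± 0.17 (adjusted p = 0.0075 and 0.0205). The hexose importer STP1 differed by -1.24 and fell by 2.52 in the pools.

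Sulfate assimilation genes included a whole enzyme family. Adenosine phosphosulfate reductases, which catalyse a controlling step of sulfate reduction, were higher in all 3 members. APR1 had 7.28, 6.94 and 7.20 in LL, 9.67 and 9.66 in HL and 7.14 in replicate 2. APR2 (AT1G62180, chromosome 1, 22975530 to 22977625) had 5.05, 5.4 and 4.87 in LL, 8.87 and 8.95 in HL and 5.47 in replicate 2. APR3 had 5.63, 5.92 and 5.89 in LL, 9.61 and 9.52 in HL and 5.87 in replicate 2. They were higher by 5.76-fold, 14-fold and 13.5-fold and rose in the pools by 1.82 ± 0.17, 2.7 ± 0.17 and 3.38 ± 0.17 (adjusted p = 0.0140, 0.0070 and 0.0057). Of the 32 genes of this list, 6 were size-called higher and 1 lower, and 5 rose and 1 fell in the pools. LSU2, a sulfur-starvation marker, was among them with a difference of 2.22. Over all probe sets 2.71% were size-called higher and 1.81% lower, and 2.41% rose and 1.84% fell in the pools.

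Of 35 phosphate starvation genes, 7 were size-called higher, 0 lower and 7 rose in the pools. Over all probe sets the shares were 2.71%, 1.81% and 2.41%. SPX1 (AT5G20150, chromosome 5, 6802372 to 6803625), an inositol phosphate sensor that restrains phosphate starvation factors, had 4.76, 4.77 and 5.11 in LL, 8.33 and 8.63 in HL and 4.91 in replicate 2. The acid phosphatase PAP17 had 5.0, 5.86 and 5.38 in LL, 9.37 and 9.35 in HL and 6.04 in replicate 2. PS3 (G3Pp1), a glycerol 3-phosphate permease, had 3.73, 4.31 and 3.55 in LL, 7.66 and 7.76 in HL and 3.90 in replicate 2. The pools increases were 3.26 ± 0.19, 4.14 ± 0.17 and 4.00 ± 0.18 (adjusted p = 0.0065, 0.0057 and 0.0057). Although these 3 were among the larger differences, the list median was 0.17.

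Of 34 nitrogen genes 1 was size-called higher and 3 lower, beside 2.71% and 1.81% over all probe sets, and the list median was 0.03. The ammonium transporter AMT1;2 was higher, with 3.56, 4.22 and 3.66 in LL and 6.95 and 6.89 in HL, and rose by 3.47 ± 0.17 in the pools (adjusted p = 0.0057). The LBD factors 37, 38 and 39, repressors of nitrate-responsive genes, differed by -1.62, -1.00 and -2.40. LBD37 and LBD39 fell in the pools (adjusted p = 0.0232 and 0.0254). The value for LBD38 there was -0.83 ± 0.17 (adjusted p = 0.0742).

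Ascorbate and carotenoid genes were size-called higher in 4 of 22 and 5 of 35, with 0 lower, and 3 of each list rose in the pools. VTC2 (AT4G26850, chromosome 4, 13499010 to 13501648), the GDP-L-galactose phosphorylase that controls ascorbate synthesis, had 8.46, 8.68 and 8.48 in LL, 11.79 and 11.73 in HL and 8.68 in replicate 2. It was higher by 9.32-fold and rose by 3.01 ± 0.17 in the pools (adjusted p = 0.0060). In the same list of 22, the ascorbate peroxidase APX1 (1.7) and the dehydroascorbate reductase DHAR2 (1.52) also rose in the pools. For DHAR2 the kept HL arrays gave 3.86 and 2.89, a gap of 0.97 against LL values of 1.92, 1.72 and 1.91. The carotene hydroxylase genes BETA-OHASE2 and BETA-OHASE1, on the way to zeaxanthin, differed by 3.97 and 1.55. BETA-OHASE2 rose by 3.96 ± 0.20 in the pools (adjusted p = 0.0057), and BETA-OHASE1 had 1.68 ± 0.39 (adjusted p = 0.103). Of 40 thiol redox genes 1 was size-called each way, a share near that over all probe sets (2.71% and 1.81%). They were the glutathione peroxidase GPX7 (2.83) and the thioredoxin ACHT5 (-2.09), and both passed the pools test in that direction.

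Photorespiration, which recycles the product of oxygen fixation by Rubisco, showed 4 of 25 genes size-called higher and 1 passing the pools test. Over all probe sets 2.71% were size-called higher and 2.41% rose in the pools. Catalase CAT2 had 6.57, 7.06 and 6.83 in LL, 9.13 and 9.08 in HL and 6.85 in replicate 2, and rose by 2.08 ± 0.17 in the pools (adjusted p = 0.0108). The glycine decarboxylase genes GLDP2 and GLDP1 and the glycolate oxidase GOX1 were higher by 1.33, 1.08 and 1.04. Their pool values of 1.02, 0.91 and 0.82 had adjusted p of 0.0544, 0.0627 and 0.116.

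Genes for alternative respiration and mitochondrial stress were size-called higher in 5 of 27 and lower in 0, and 5 rose in the pools. Over all probe sets the shares were 2.71%, 1.81% and 2.41%. The genes called by each criterion were not all the same. OM66 was size-called but had an adjusted p of 0.0744 in the pools, and DIC2 rose there without a size call. The alternative oxidase AOX1A had 4.03, 4.52 and 4.59 in LL, 6.95 and 6.87 in HL and 4.37 in replicate 2. The alternative NADH dehydrogenases NDA1 and NDB2 differed by 2.44 and 1.67, and their mitochondrial stress regulator ANAC013 by 1.57. The pools increases were 2.44 ± 0.16 for AOX1A, 1.61 ± 0.17 for NDA1 and 2.51 ± 0.18 for NDB2 (adjusted p = 0.0080, 0.0183 and 0.0091). For NDB2 replicate 2 had 4.30, above the LL values of 3.55, 4.16 and 3.13.

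**Figure D4:**
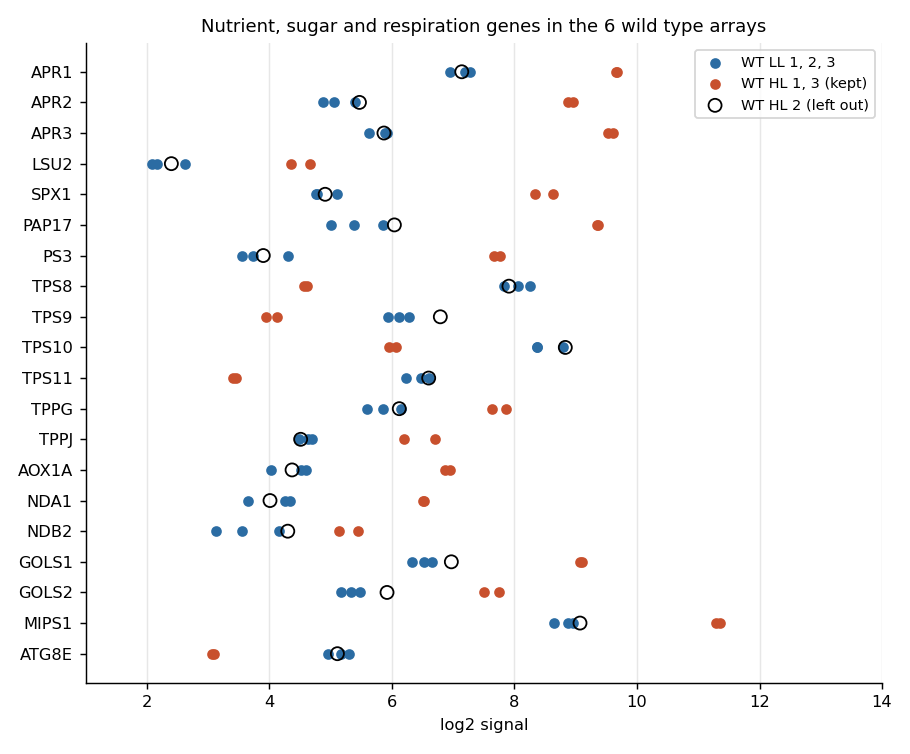
Log2 signal (x axis) of genes for sulfate reduction, phosphate supply, trehalose 6-phosphate, respiratory bypass, galactinol and inositol synthesis and autophagy in the WT LL arrays (blue), WT HL replicates 1 and 3 (red) and WT HL replicate 2 (open circle). APR1 to APR3 and SPX1 lie higher in HL, TPS8 to TPS11 and ATG8E lower, and TPPG and TPPJ higher.

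Solute and lipid genes added smaller groups. Galactinol synthases GOLS1 and GOLS2 and the inositol phosphate synthase MIPS1, which feed the raffinose family, differed by 2.59, 2.3 and 2.5 and rose in the pools (adjusted p = 0.0075, 0.0093 and 0.0075). Of 20 genes in that list, 6 were size-called higher and 0 lower, beside 2.71% and 1.81% over all probe sets. In a list of 37 lipid genes, 4 were higher: the plastid desaturase FAD4 (2.37), the sulfolipid enzymes SQD1 (1.37) and SQD2 (1.06) and the galactolipid synthase DGD1 (1.36). FAD4, SQD1 and DGD1 rose in the pools, and SQD2 had 0.99 ± 0.17 (adjusted p = 0.0555). The wax repressor DEWAX (AT5G61590) had 7.30, 7.07 and 7.04 in LL, 3.85 and 3.72 in HL and 7.37 in replicate 2, and fell by 3.99 ± 0.31 in the pools (adjusted p = 0.0104).

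Hormone lists held size calls in both directions, except for ethylene. Of 59 auxin genes 4 were size-called higher and 4 lower, of 48 cytokinin genes 2 and 1, of 39 gibberellin genes 1 and 3, and of 35 ethylene genes 0 and 3. Over all probe sets 2.71% were size-called higher and 1.81% lower. The auxin synthesis gene YUC9 had 3.54, 4.23 and 3.32 in LL and 5.61 and 6.01 in HL and rose by 3.41 ± 0.35 in the pools (adjusted p = 0.0171), whereas the conjugating enzyme GH3.6 had 7.61, 7.57 and 7.61 in LL and 5.89 and 6.02 in HL and fell by 1.25 ± 0.18 (adjusted p = 0.0354). The cytokinin oxidase CKX5 (2.02) and the DELLA repressor RGL2 (1.95) rose in the pools. The ethylene factor EIL1 (-1.37) and its F-box regulator EBF2 (-1.26) fell there, as did the gibberellin-regulated GASA6 (-1.42). Medians of the auxin, cytokinin, gibberellin and ethylene lists were 0.02, 0.01, 0.02 and -0.07.

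Light-signalling factors in the list of 49 flowering time genes differed in both directions, with 8 size calls higher and 5 lower. The B-box genes BBX17 and COL9 differed by -2.96 and -2.65 and fell in the pools, whereas COL1 (2.21), BBX16 (2.17) and COL2 (1.62) rose. SPA3, which acts with the COP1 ubiquitin ligase to repress light responses, rose too (1.97), and SPA1 and SPA4 were higher by 1.34 and 1.09 with pool values of 0.94 and 0.94 (adjusted p = 0.0667 and 0.0761). Of 24 chlorophyll breakdown and senescence genes 1 was size-called higher and 1 lower, near the share over all probe sets (2.71% and 1.81%). The chlorophyllase CLH1 was higher (1.57) and rose in the pools (adjusted p = 0.0436), and the senescence factor ORE1 was lower (-1.65) and fell there. ORE1 had 4.02, 4.98 and 4.03 in LL, 2.53 and 2.86 in HL and 5.43 in replicate 2, the highest value of the 6 arrays.

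**Figure D5:**
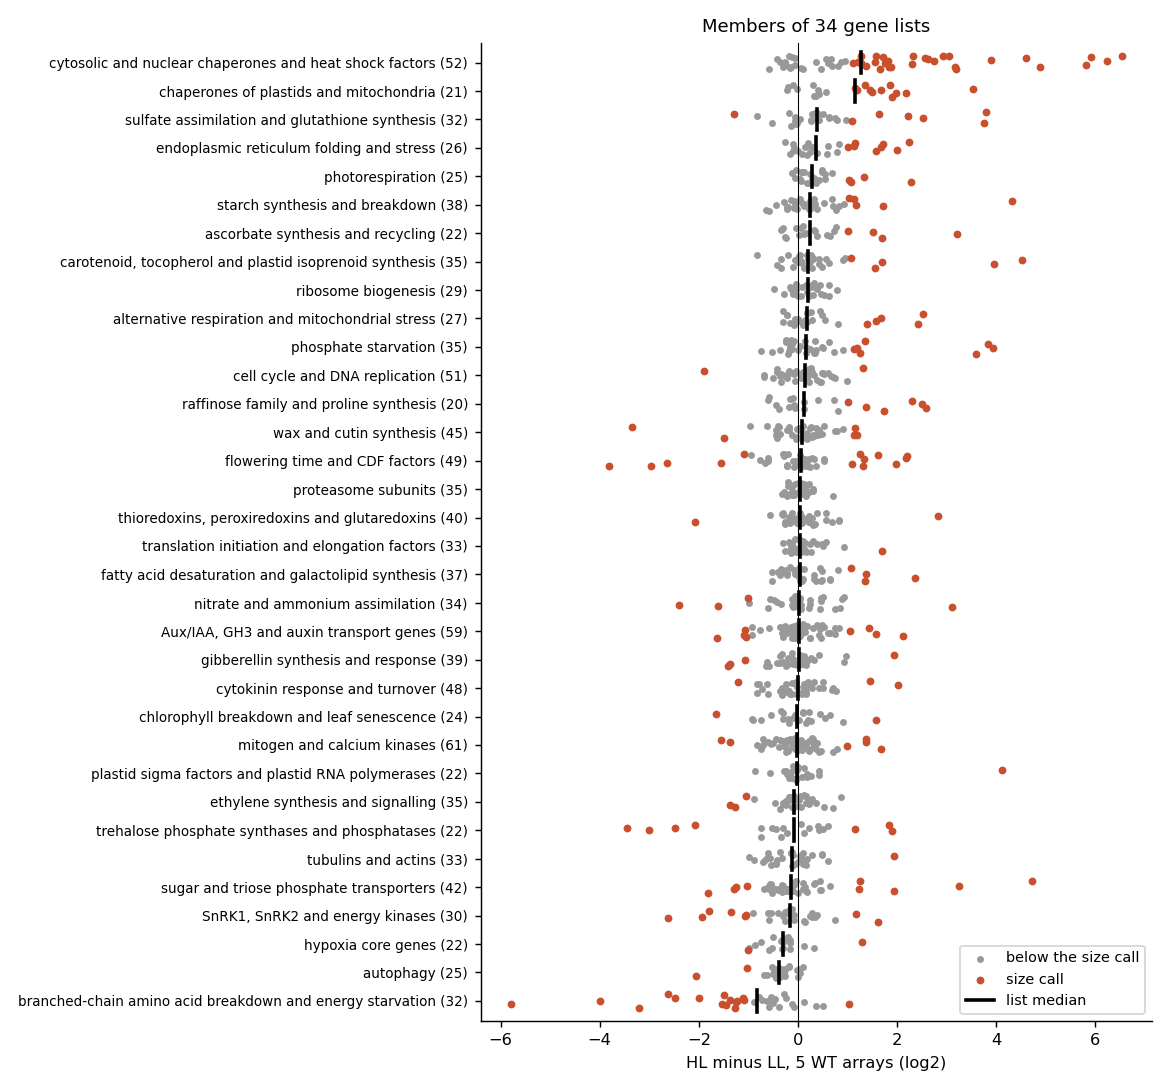
Difference between HL and LL in the 5 WT arrays (x axis, log2) for the members of 34 gene lists (rows, with the number of genes on the array), size calls in red, other members in grey and the list median as a black bar. The 2 chaperone lists have the highest medians, at 1.27 and 1.15, and the list for branched-chain amino acid breakdown and energy starvation the lowest, at -0.83. The cytosolic chaperone list holds HSP90.1, the gene of the rule.

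Size calls among the cell type markers lay in the mesophyll and guard cell lists, beside 2.71% higher and 1.81% lower over all probe sets. Of the mesophyll markers 3 of 23 were size-called higher, the Rubisco small subunit genes RBCS2B (1.54), RBCS1B (1.34) and RBCS3B (1.03), of which RBCS1B rose in the pools (adjusted p = 0.0204). These are near-identical genes and their signals may not be separate. In the guard cell list 1 of 17 was higher, the potassium channel KAT1 (1.91), with 1.56 ± 0.27 in the pools (adjusted p = 0.0551). Of the root, flower, vascular and epidermis lists, 0 of 22, 0 of 24, 0 of 23 and 0 of 19 were called by either criterion. In lists of this size that is near the share over all probe sets. Their medians in the 5 arrays were -0.02, -0.09, -0.14 and 0.19.

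Annotation terms were counted over loci, of which 2.74% were size-called higher and 1.83% lower in all. Of 247 loci annotated with response to heat, 72 were size-called higher and 1 lower, and of 209 with response to high light intensity, 60 and 1. Response to hydrogen peroxide had 58 of 189 higher, and flavonoid biosynthesis 22 of 71. Among terms of at least 15 loci, the largest share was in myo-inositol hexakisphosphate biosynthesis, with 32 of 64 higher. On the lower side, response to fructose stimulus had 20 of 144 and circadian rhythm 19 of 134, beside 14 higher. These are counts with no enrichment test, and the 5 arrays that define them were selected on HSP90.1.

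Median gene length in the RefSeq table (TAIR10.1) was 2205 bp for higher and 2152 bp for lower loci, against 2099 bp for all loci with a length. Chromosome 1 held 26.2% of the higher and 26.9% of the lower loci, against 26.1% of all.

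A few called genes had replicate 2 on the HL side. Over both directions 43 of the 1283 calls, 29 higher and 14 lower, had a position above 0.5, and 20 of the 43 passed the pools test. AT2G44320 and other probe sets without an assigned locus carry the same values, so 1 signal enters the 29, the 43 and the 20 more than once. The genes that follow were picked from these after their values were seen, for their position or their size. CRL1 and DOX1 had the highest positions, 1.2 and 1.18. CRL1 had 5.89, 5.81 and 5.91 in LL, 6.82 and 6.95 in HL and 7.09 in replicate 2, and DOX1, an alpha-dioxygenase, had 2.42, 2.98 and 3.07 in LL, 3.99 and 4.1 in HL and 4.27 in replicate 2. In both, replicate 2 lay above the kept HL arrays. CRL1 rose in the pools by 1.47 ± 0.19 (adjusted p = 0.0295), and DOX1 had 0.48 ± 0.18 (adjusted p = 0.252). Among the 14 lower calls AT4G22505 had the highest position, 0.92, with 4.14, 4.03 and 3.44 in LL, 2.79 and 2.77 in HL and 2.87 in replicate 2, and a pool value of -1.02 ± 0.17 (adjusted p = 0.0501). The largest difference of the 43 belonged to RD20, a caleosin known to be induced by drought and abscisic acid, with 4.29, 5.29 and 5.08 in LL, 8.32 and 8.54 in HL and 6.91 in replicate 2. RD20 rose in the pools by 3.55 ± 0.35 (adjusted p = 0.0166). What sets replicate 2 apart in these genes was not tested.

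A size call favours a small gap between the kept HL replicates, since both must lie outside the LL range. Both were also kept by their HSP90.1 signal, so no agreement of replicates is read from the gaps of the calls. The median gap was 0.13 over the higher calls and 0.17 over the lower calls, against 0.17 over all probe sets, and 13 calls had a gap over 1. COX19-1, a mitochondrial copper chaperone, had the largest, with 4.02 and 2.35 in HL against 1.89, 2.27 and 1.67 in LL, and its difference of 1.24 was 0.41 without HL replicate 1. The other 5 of the largest gaps belonged to AT1G63730, PHE1, SAUR19, AT5G44590 and GT2. Without HL replicate 3 the differences of AT1G63730, PHE1, SAUR19 and GT2 were -0.4, -0.48, 0.96 and -0.61, and without HL replicate 1 that of AT5G44590 was -0.63. SAUR19, an auxin-induced growth gene, had 4.43 and 5.69 in HL against 3.17, 3.28 and 3.97 in LL, and rose by 1.5 ± 0.20 in the pools (adjusted p = 0.0289). PHE1 and GT2 fell there (adjusted p = 0.0457 and 0.0314), while AT1G63730 and AT5G44590 had adjusted p of 0.238 and 0.838. ACT11, an actin gene, had LL values of 3.28, 3.09 and 3.07 and HL values of 4.94 and 5.22, but a pool value of 0.21 ± 0.17 (adjusted p = 0.583).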

How the data were processed

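Log2 signals of 28403 main probe sets on 16 arrays were used, and 77 rescue and 21 ribosomal RNA probe sets were left out. Per the submitters' processing notes, the authors made the deposited log2 values with RMA in Affymetrix Expression Console, whose version, probe set library and genome build are not given in the sources used here. RMA equalises the distributions of probe intensities between arrays before summarising them to probe sets, so a change common to all genes would not show. The probe set values themselves were not exactly equal in distribution, with array medians from 4.37 to 4.41. The authors' table adds annotation, means, log ratios and p-values. The p-values are as deposited by the authors, with no adjustment named per the file headers, and the one for HSP90.1 is printed. Its 16 signal columns per sample were not used.

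From these values, differences of means were taken in the 5 WT arrays without a test, and limma 3.58.1 in R 4.3.3 (lmFit and eBayes, two-sided, Benjamini-Hochberg adjustment over all main probe sets) was fitted to the pools (genotype plus light, 1 residual degree of freedom, prior 3.87) and to the 12 single arrays (4 groups). In the text ± is the standard error of the pools fit. On simulated data the pools fit recovered most changes when the noise followed its own prior. When the noise instead followed each probe set's spread over the WT LL arrays, it recovered most of the larger changes and none of the smaller ones. The first noise model was adopted after the second had been tried. Probe sets were assigned to loci by the annotation the authors deposited, with symbols from RefSeq (TAIR10.1); 27224 main probe sets had 1 locus, 990 are marked as cross-hybridising, and lists use the probe set with the highest mean per locus.

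Genes were named by rule from probe sets of 1 locus not marked as cross-hybridising: the 20 largest size calls each way that passed the pools test (values in every array for the first 8), up to 4 size calls per list, HSP90.1, the 6 largest gaps between the kept HL arrays and up to 6 largest size calls with an opposite pools value. Names outside it, among them list members given beside a count and the genes with replicate 2 on the HL side, were chosen after their values were seen. The 34 gene lists, 6 marker lists and the members were chosen with earlier results of these data known. Replicate numbers were checked as pairs: same-numbered LL and HL deviations correlated at 0.06, 0.14 and 0.04, so they were not treated as pairs. Alternatives were all 6 WT arrays, other scalings, priors, filters and sizes, and leaving out each array.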

Additional observations from a re-analysis of the deposited data

Results flagged for a closer look

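Light effects of opposite sign between arrays were seen for 6 named genes. None of these differences was tested, each rests on single arrays, and values near 0 can fall on either side by chance. COX19-1 was higher in HL by 1.24 in the 5 WT arrays but had -1.16 in the WT pool pair and -0.85 in the cml49 pool pair. The other 5 had opposite signs in the pool pairs. AT2G44300, a lipid transfer protein-like gene, had 0.05 in WT and -1.68 in cml49, with 1.08 in the 5 WT arrays. AT5G44590, a methyltransferase-like gene, had 0.24 and -0.48, with -1.26 in the 5 arrays. AT1G08440, an aluminium-activated malate transporter family gene, had -0.55 and 0.24, with 1.04 in the 5 arrays. AT4G33930 had 0.04 and -0.17, and AGP10, an arabinogalactan protein, had 0.01 and -0.30.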

How the results depend on the processing

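With all 6 WT arrays as labelled, size calls numbered 174 higher and 57 lower. Size calls numbered 179 and 75 at a size of at least 2 and 1754 and 1554 at the smaller size limit tried. Leaving out each of the 5 arrays gave 750 to 863 higher and 505 to 566 lower. The 12-array fit called 0 probe sets for light in WT under each alternative but the one without WT HL replicate 2, which called 1 and is not used as a test, since that array was left out by its readout. The replicate block called 0 as well, and the fits without each sap3 array, chosen after seeing the data, also called 0. The interaction of light and genotype called 0 in all settings run (744 at an unadjusted p under 0.05, smallest adjusted p 0.999). Pool increases and decreases numbered 1045 and 882 with a mean-dependent prior, 1589 and 1382 with a robust prior, 1428 and 1287 after another quantile normalisation, and 109 and 46 at an adjusted p under 0.01. For these counts the cause was not tested, apart from the stricter or looser thresholds and fewer arrays. WT pool size calls numbered 1246 and 952, and 270 and 168 at a size of at least 2. Of 145 named probe sets, all of them size calls, none changed direction under any setting. For leaving out 1 of the 5 arrays this was fixed in advance, because the HL and LL ranges of a size call do not overlap. The scalings moved the differences by at most 0.065, against a size limit of 1, so they could not reverse a sign either. Leaving out 1 array moved them by up to 0.835, and all 6 arrays gave 0.447 to 0.96 of the difference. The pools have 1 array per group, which limits the precision of every adjusted p.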
